A study of Caenorhabditis elegans with 48 samples.

Results

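The early starvation response of Caenorhabditis elegans was measured here as 12 h against 4 h of L1 arrest, a window that opened after most larvae had left the egg. The comparison took 8 of the 48 libraries of an mRNA-seq time series, 4 at 12 h and 4 at 4 h, with the replicate numbers 1, 5, 6 and 8 at both times. It covered every gene of the count tables apart from the 5 summary entries for reads without a gene. All animals were of the wild-type strain N2. Embryos were released from well-fed adults by hypochlorite treatment and were then shaken in S-basal, a buffer that contains no food, so that the larvae hatched into starvation. The groups differed in the time spent in that buffer, counted from the nominal hatch. Per the study's methods, each of 3 replicates followed a single culture through time, while several cultures made up the remaining replicate, whose number is not stated. By the study's hatching counts some animals were still in the egg at 4 h, so for genes that change at hatching the effects of late hatching and of starvation cannot be told apart. Whole larvae were sequenced, and fewer cells of a type and less RNA per cell cannot be told apart either.

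Larvae that hatch without food stop development at the first larval stage, a state known as L1 arrest. Cell division and molting do not proceed, and the animals live on stored nutrients and turn to stress resistance. In fed larvae, insulin-like peptides bind the receptor DAF-2, which acts through the PI3 kinase AGE-1 and the AKT kinases to keep the FOXO transcription factor DAF-16 out of the nucleus. Without DAF-16, arrest is not maintained properly. AMPK senses low cellular energy, and HLH-30, the TFEB homolog, drives autophagy and lysosomal genes in starved animals.

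The 8 libraries held 11045798 to 14527846 gene counts each. Ribosomal RNA took 1.26 to 5.50% of these counts, and reads without a gene 23.6 to 28.5% of all reads, with overlapping ranges at both times. Replicates of a time point differed by more than sampling noise in every pair. Transcripts of sources other than larvae were low: none of 35 major sperm protein genes passed the filter on low counts, and the 6 vitellogenin genes together held 3.58 to 5.86 CPM at 12 h and 4.97 to 8.34 CPM at 4 h. CPM are read counts scaled to library size with TMM factors, so every rise and fall given here is relative to the other transcripts of a library. Markers of embryos and hatching summed to 273 to 342 CPM at 12 h and 264 to 338 CPM at 4 h. Of 21 such genes tested, 2 were higher (9.52%, against 13.6% of all genes) and 1 lower (4.76%, against 13.3%) at 12 h. The defining genes of the larval tissues were present at both times, with summed intestinal markers at 10162 to 12594 CPM at 12 h and 9938 to 11775 CPM at 4 h.

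Expression of 4564 of 16987 genes tested (26.9%) differed between 12 h and 4 h at a false discovery rate (FDR) under 0.05, by the edgeR quasi-likelihood F test. Of these, 2306 genes (13.6% of those tested) were higher and 2258 (13.3%) were lower at 12 h. At least a 2-fold difference was seen in 509 of the higher and 802 of the lower genes, so that large changes were more often falls. The 4 libraries of 12 h did not overlap those of 4 h in 3689 of the 4564 genes (80.8%), against 25.8% of all genes tested. Of the 4564, 97.9% had one direction throughout the 4 replicates. The shares of 80.8% and 97.9% describe genes called from these same libraries and are no test. With the replicate number as a block, 5546 genes (32.6%) passed. Among the genes lower at 12 h, replicate 1 was the lowest 4 h library in 1311 of 2258 (58.1%), whereas the other replicates were lowest in 262 to 382. Replicate 8 was the highest 4 h library in 975 of the 2306 genes that were higher at 12 h (42.3%).

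The libraries of 6 h and 9 h lie inside this window and entered the comparison of 12 h with 4 h only through the shared estimate of the spread, although they came from the same cultures. Of the 2306 genes higher at 12 h, 2200 (95.4%) were also higher at 9 h than at 6 h, against 53.3% of all genes tested. Of the 2258 genes lower at 12 h, 2155 (95.4%) were also lower at 9 h than at 6 h, against 46.7% of all genes. On their own, 9 h against 6 h gave 352 genes (2.07%) at an FDR under 0.05, 103 higher and 249 lower. Of these, 351 were called in 12 h against 4 h as well, and 351 of 351 moved in the same direction in both.

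**Figure D1:**
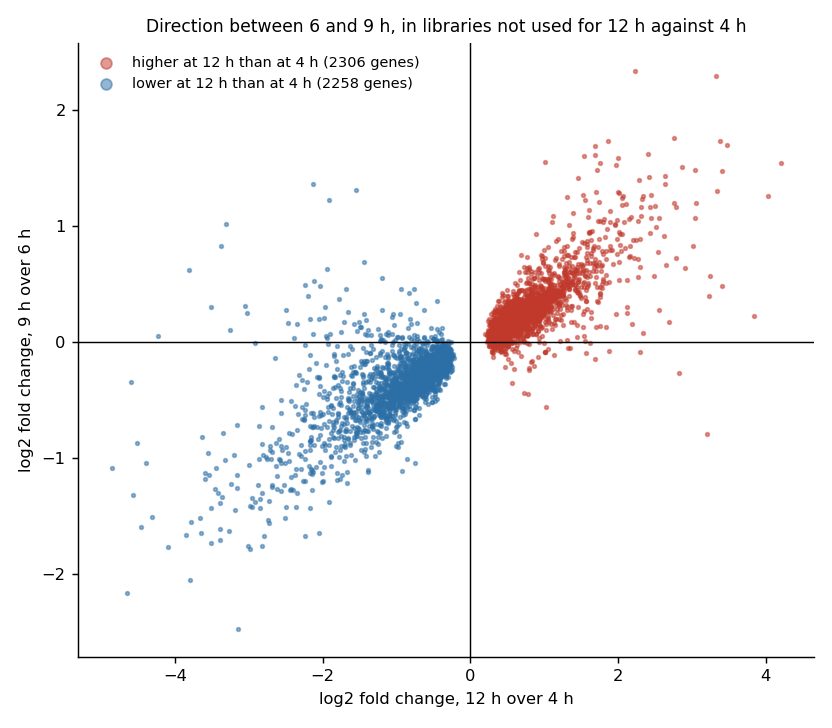
Change between 6 h and 9 h (log2 fold change, 9 h over 6 h, vertical axis) of the 4564 genes that differed between 12 h and 4 h (log2 fold change, 12 h over 4 h, horizontal axis). Each point is a gene, red where expression was higher and blue where it was lower at 12 h. Of the red genes 2200 lie above the horizontal line and of the blue genes 2155 lie below it.

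The change was spread over the window. Mean expression increased at each of the steps from 4 to 6, 9 and 12 h in 2010 of the 2306 genes higher at 12 h (87.2%; 19.4% of all genes), and decreased at each step in 1853 of the 2258 lower genes (82.1%; 17.6% of all genes). These shares describe the genes and are no test, since the 4 h and 12 h means chose them. The median rising gene had covered 30.4% of its log2 change by 6 h and 63.3% by 9 h, and the median falling gene 30.6% and 72.1%. Over the whole series of 12 time points, 764 of the 2306 rising genes had their highest mean at 192 h, 550 at 288 h and 211 at 12 h. Of all 16987 genes these numbers were 1806, 3688 and 581. Of the 2258 falling genes, 1212 had their lowest mean at 288 h and 125 at 12 h, against 4061 and 794 of all genes.

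The largest rise among genes with a symbol and a mean of at least 10 CPM was in hsp-12.6 (F38E11.2), which encodes a small heat shock protein of the alpha-crystallin family and is activated by DAF-16. Its expression was 124, 53.0, 66.9 and 100.01 CPM at 12 h, against 5.31, 6.20, 2.57 and 4.38 CPM at 4 h, where values are given in the order of replicates 1, 5, 6 and 8. Every 12 h library was far above every 4 h library, and the log2 fold change (12 h over 4 h, ± SE here and below) was 4.205 ± 0.30, with an edgeR FDR of 4.84e-15. Expression of tbb-6 (T04H1.9), a beta-tubulin gene, was 37.96, 12.4, 23.3 and 23.6 CPM at 12 h, against 5.83, 1.92, 2.16 and 1.90 CPM at 4 h. Replicate 1 was the highest at both times, the groups did not overlap, and the log2 fold change was 3.04 ± 0.45. Expression of dao-6 (T05G5.12), a gene named for its overexpression in dauer larvae and aging adults, was 35.4, 24.6, 35.6 and 29.9 CPM at 12 h, against 5.02, 5.41, 6.89 and 4.90 CPM at 4 h. These values did not overlap and gave a log2 fold change of 2.50 ± 0.28.

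Genes of lipid, iron and xenobiotic metabolism were also among the 15 largest rises. The fatty acid desaturase gene fat-6 (VZK822L.1), whose product makes oleic acid from stearic acid, was at 499.8, 592, 948 and 589 CPM at 12 h, against 115, 170.0, 221 and 149 CPM at 4 h. Every 12 h library was above every 4 h library, with replicate 6 the highest at both times, and the log2 fold change was 2.01 ± 0.21. The ferritin gene ftn-1 (C54F6.14), which stores iron and is expressed in the intestine, was at 55.1, 49.2, 50.02 and 62.2 CPM at 12 h, against 11.95, 13.8, 9.87 and 14.5 CPM at 4 h, a log2 fold change of 2.11 ± 0.16. The cytochrome P450 genes cyp-32B1 and cyp-34A9 were higher at 12 h by 2.04 and 1.77 on the log2 scale. Expression of cpr-2 (F36D3.9), a cathepsin B-like cysteine protease gene, was 154, 182, 101 and 224 CPM at 12 h, against 49.9, 48.4, 32.8 and 61.4 CPM at 4 h, which did not overlap. The remaining large rises were in lmd-4 (2.56), fbxa-162 (2.51), arrd-11 (2.29), pugs-11 (2.21), hsp-12.3 (2.16), dach-1 (1.89) and abu-10 (1.80), given as log2 fold changes. Of these, arrd-11 encodes an arrestin domain protein, and fbxa-162 is a pseudogene in the current annotation.

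The largest fall by the same rule was in grd-13 (W05E7.3), one of the hedgehog-related genes that nematodes carry in place of a canonical hedgehog. Its expression was 4.25, 3.81, 7.96 and 2.69 CPM at 12 h, against 68.6, 131, 157 and 118 CPM at 4 h. The log2 fold change was -4.65 ± 0.33, with an edgeR FDR of 4.84e-15, and the libraries of both times were far apart. The proton-dependent myo-inositol transporter genes hmit-1.2 and hmit-1.1 fell by 4.395 and 3.54 on the log2 scale. Expression of hmit-1.2 (Y51A2D.5) was 0.863, 1.03, 1.14 and 0.597 CPM at 12 h, against 6.86, 26.9, 33.5 and 10.2 CPM at 4 h, so that the 4 h level varied widely between replicates while the 12 h level was low in each. The UDP-glucuronosyl transferase gene ugt-22 (C08F11.8), of a family that conjugates lipophilic compounds, was at 3.78, 4.32, 3.95 and 4.33 CPM at 12 h, against 39.8, 87.4, 83.9 and 68.5 CPM at 4 h, a log2 fold change of -4.09 ± 0.28. Replicate 1 was the lowest of the 4 h libraries in each of these genes.

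Several of the largest falls were in genes of intestinal digestion and defense. Expression of the lysozyme gene lys-1 (Y22F5A.4) was 31.6, 39.3, 59.99 and 30.5 CPM at 12 h, against 244, 438, 524 and 496 CPM at 4 h, a log2 fold change of -3.40 ± 0.32, and lys-2 fell by 3.27 on the same scale. The lysosomal lipase gene lipl-1 (F54F3.3) was at 2.52, 1.90, 1.204 and 1.27 CPM at 12 h, against 26.9, 15.9, 12.11 and 19.5 CPM at 4 h, without overlap. Expression of smd-1 (F47G4.7), which encodes S-adenosylmethionine decarboxylase, a step of polyamine synthesis, was 9.49, 16.6, 15.4 and 8.06 CPM at 12 h, against 96.1, 152, 139.9 and 121 CPM at 4 h, a log2 fold change of -3.36 ± 0.22. The other falls of this size were pugs-8 (-4.32), the prolyl carboxypeptidase-like gene pcp-2 (-3.85), dct-16 (-3.79), dod-17 (-3.67), the hedgehog-related gene grd-10 (-3.40) and the collagen genes col-12 (-3.45) and col-13 (-3.35), again as log2 fold changes. col-12 and col-13 are neighboring close paralogs, and reads that map to 2 locations were kept, so their values are not independent. One direction in the 4 replicates was a condition for choosing the 30 genes with the largest rises and falls. Each of the 30 stayed past the threshold in every alternative in which it was tested.

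**Figure D2:**
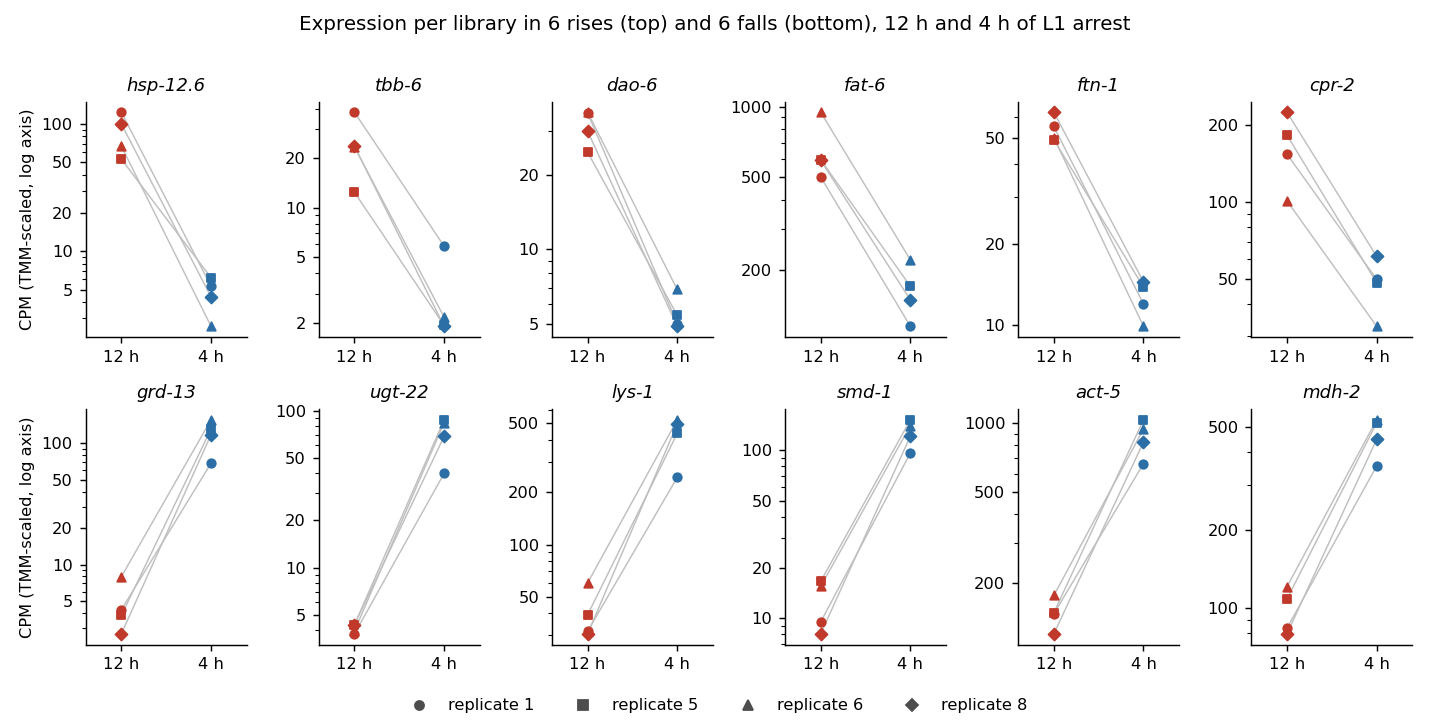
Expression of 6 genes higher at 12 h (upper row) and 6 genes lower at 12 h (lower row) in each library, 12 h at the left and 4 h at the right of each panel (CPM after TMM scaling, log axis). Symbols mark the replicate and gray lines join libraries of the same number. The libraries of 12 h and 4 h do not overlap in any of the 12 panels, and at 4 h replicate 1 is the lowest in each panel of the lower row.

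Stress response genes were examined first as a group of targets of DAF-16 and of general stress. Of 14 such genes tested, 7 were higher and 1 was lower at 12 h, with a median log2 fold change of 0.43, against -0.01 for all genes. These are 50% and 7.14%, where over all genes tested 13.6% were higher and 13.3% lower. The same 2 shares of all genes apply beside every list below. Without replicate 1, 6 or 8, or without scaling factors, 5 of the 14 were higher. Besides hsp-12.6 and dao-6 the higher genes included nnt-1, the mitochondrial nicotinamide nucleotide transhydrogenase, with a log2 fold change of 0.79. The manganese superoxide dismutase gene sod-3 was at 13.7, 6.96, 11.4 and 11.6 CPM at 12 h, against 4.72, 7.41, 6.47 and 2.996 CPM at 4 h. Its values overlapped, 3 of 4 replicates were higher at 12 h, and its edgeR FDR of 0.00546 was 0.058 without replicate 1 and 0.0848 without replicate 8.

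Small heat shock proteins moved in both directions. Of 16 genes tested, 9 were higher and 4 lower at 12 h, and the median log2 fold change of 1.66 was the highest of any group examined. The rising members included hsp-12.6, hsp-12.3 and stress-inducible hsp-16 genes. Expression of hsp-16.1 (T27E4.8) was 27.8, 4.47, 13.2 and 22.02 CPM at 12 h, against 2.29, 0.499, 1.99 and 1.61 CPM at 4 h, a log2 fold change of 3.41 ± 0.56. Replicate 5 was the lowest and replicate 1 the highest at both times, and no 4 h library reached the lowest at 12 h. The near-identical neighbor hsp-16.11 had 3.38 on the log2 scale, hsp-16.48 2.64 and hsp-16.20 2.45, and reads of such copies may be shared among them. The 4 falling members, named after their values were seen, were hsp-12.2 (-1.35), hsp-12.1 (-1.15), hsp-17 (-1.12) and hsp-25 (-1.08), and the call of hsp-12.1 was lost without replicate 5, 6 or 8 and in a fit of the 8 libraries alone. The abundant hsp-12.2 was at 162, 177, 215 and 191.8 CPM at 12 h, against 384, 463, 517 and 536 CPM at 4 h. The summed CPM of the 16 genes was lower at 12 h (431 to 629.6) than at 4 h (636 to 824), and these ranges did not overlap.

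Cytosolic chaperones were more often higher than lower, by smaller amounts. Of 23 genes tested, 13 were higher and 1 lower at 12 h, and without scaling factors 7 were higher. Expression of hsp-90 (C47E8.5), which encodes the HSP90 chaperone, was 1766, 1189, 1316 and 1206 CPM at 12 h, against 962, 772, 767 and 782 CPM at 4 h, a log2 fold change of 0.74 ± 0.12. The chaperonin subunit genes cct-4 and cct-7 rose by 0.82 and 0.55, and the prefoldin subunit gene pfd-5 by 0.71. The mitochondrial chaperones diverged, since hsp-60 (Y22D7AL.5) was at 34.98, 37.4, 33.2 and 30.5 CPM at 12 h, against 89.6, 147, 145 and 114 CPM at 4 h, a log2 fold change of -1.86 ± 0.14, and hsp-6, the mitochondrial HSP70, rose by 0.52. Of 21 genes of the endoplasmic reticulum stress response, 2 were higher and 4 lower. With the replicate block 7 were higher and 4 lower, and 2 were lower without replicate 5, 6 or 8.

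In insulin-like signaling, transcripts of ligands, of the receptor and of the transcription factor changed. The C. elegans genome encodes a large family of insulin-like peptides, and 25 of 40 were expressed above the filter. Of these, 6 were higher and 5 lower at 12 h. Expression of daf-28 (Y116F11B.1), an agonist of DAF-2 that is made in sensory neurons and promotes growth, was 10.9, 12.01, 9.90 and 14.3 CPM at 12 h, against 18.96, 20.5, 18.6 and 21.05 CPM at 4 h. These values did not overlap, and the log2 fold change was -0.75 ± 0.18. The other 4 lower peptides averaged under 5 CPM and were named after their values were seen. They were ins-6 (-1.77 ± 0.29) and ins-4 (-1.84 ± 0.50), which act as agonists like daf-28, ins-5 (-1.98 ± 0.38) and ins-22 (-0.97 ± 0.33). The call of ins-4 was lost without replicate 6, and that of ins-22 without replicate 1, 5 or 6. When genes under a mean of 10 CPM were left out, 1 peptide was lower, daf-28, and 3 were higher.

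On the rising side, ins-17 (F56F3.6) was at 81.4, 93.3, 81.7 and 102 CPM at 12 h, against 55.4, 60.3, 59.0 and 71.5 CPM at 4 h, and ins-35 (K02E2.4) at 24.03, 27.1, 22.7 and 31.8 CPM at 12 h, against 14.8, 12.97, 11.4 and 20.8 CPM at 4 h. Both were without overlap, with log2 fold changes of 0.54 ± 0.13 and 0.81 ± 0.20. Smaller transcripts that rose were ins-29 (1.74 ± 0.29), ins-20 (1.403 ± 0.45), ins-25 (0.98 ± 0.29) and ins-24 (0.68 ± 0.22), where ins-29, ins-20 and ins-25 averaged under 5 CPM and were named after their values were seen. Without replicate 6 the calls of ins-20, ins-25 and ins-24 were lost, without replicate 8 those of ins-20 and ins-25, and without replicate 1 or 5 that of ins-24. In a fit of the 8 libraries alone, 3 peptides in place of 6 were higher.

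Of 15 genes of the insulin pathway, 5 were higher, of which 4 are described here, and 1 lower at 12 h. With a replicate left out, 4 or 5 were higher and 1 or 2 lower. Expression of the receptor gene daf-2 (Y55D5A.5) was 480.3, 542, 478 and 485 CPM at 12 h, against 323, 419.5, 315 and 288.1 CPM at 4 h. Every 12 h library was above every 4 h library, and the log2 fold change was 0.56 ± 0.14, with an edgeR FDR of 0.00217. Genes of the adaptor proteins that link the receptor to PI3 kinase rose alongside it, ist-1 by 0.60 ± 0.11 and aap-1 by 0.69 ± 0.10. Expression of daf-16 (R13H8.1) was 348, 448, 430.1 and 343 CPM at 12 h, against 247, 334, 315 and 225 CPM at 4 h, also without overlap, with a log2 fold change of 0.49 ± 0.13. The falling gene was ftt-2, a 14-3-3 protein gene whose product binds DAF-16 in the cytoplasm, at 663, 693, 718 and 655 CPM at 12 h, against 788, 953, 949 and 964 CPM at 4 h. The kinase genes did not pass, with log2 fold changes of 0.18 ± 0.10 for age-1, 0.22 ± 0.09 for akt-1, 0.04 ± 0.09 for akt-2, -0.14 ± 0.11 for sgk-1 and -0.33 ± 0.13 for pdk-1. With the replicate block, 7 of the 15 genes were higher and 2 lower.

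**Figure D3:**
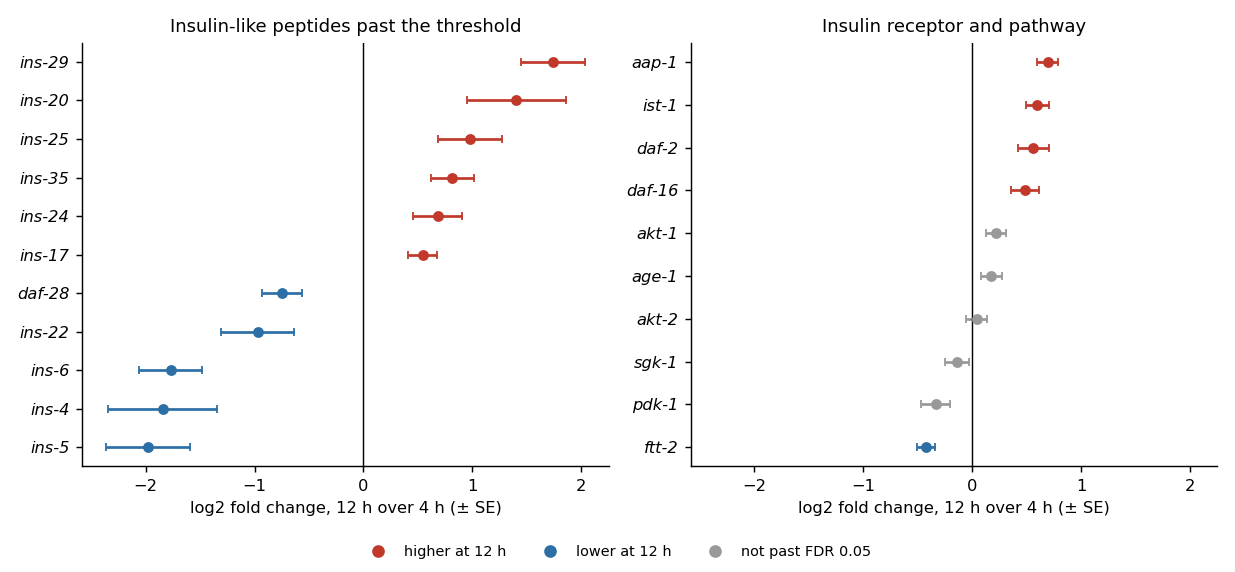
Log2 fold change (12 h over 4 h) with its standard error for the 11 insulin-like peptide genes past the threshold (left) and for 10 genes of the insulin receptor and its pathway (right). Red is higher and blue lower at 12 h, gray is not past an FDR of 0.05. The agonist genes daf-28, ins-6 and ins-4 lie left of 0, and daf-2 and daf-16 lie right of it.

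Energy sensing and autophagy came next. Of 23 genes of AMPK and TOR signaling, 5 were higher (21.7%, against 13.6% of all genes) and 3 lower (13.04%, against 13.3%). Expression of daf-15, which encodes the TOR partner Raptor, was 287, 291, 264 and 267 CPM at 12 h, against 195, 220.1, 187 and 173 CPM at 4 h, and the AMPK gamma subunit genes aakg-4 and aakg-5 rose by 0.75 and 0.50 while aakg-3 fell by 0.74. The AMPK catalytic subunit gene aak-2 had a log2 fold change of 0.18 ± 0.09 (edgeR FDR 0.151, and 0.0497 with the replicate block in a fit of the 8 libraries alone), and aak-1 had 0.55 ± 0.17, with an FDR of 0.00954 that was 0.0639 without replicate 8. Of 28 autophagy genes, 9 were higher and 2 lower. With a replicate left out, 6 to 8 were higher, and 1 was lower without replicate 1 or 5 and 0 without replicate 6 or 8 or without the filter on low counts (edgeR). Expression of sqst-1 (T12G3.1), which encodes the p62 receptor for ubiquitinated cargo, was 592, 499.8, 569.7 and 472 CPM at 12 h, against 362, 364, 332 and 335 CPM at 4 h, and that of atg-16.2 (K06A1.5), needed for lipidation of the LGG proteins on the growing autophagosome, 122, 116, 111.8 and 138 CPM at 12 h, against 65.0, 58.6, 55.5 and 71.9 CPM at 4 h. Neither gene overlapped between the times, and the log2 fold changes were 0.61 ± 0.10 and 0.96 ± 0.11. hlh-30 itself had -0.10 ± 0.13 (edgeR FDR 0.663).

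Among the other regulators of the arrest, skn-1, which encodes the Nrf transcription factor, was at 261, 302, 246 and 214 CPM at 12 h, against 173, 204, 180.1 and 145 CPM at 4 h, without overlap and with a log2 fold change of 0.54 ± 0.12. ama-1, the large subunit of RNA polymerase II, had 0.62 ± 0.16 with overlapping values (edgeR FDR 0.00325; higher in 4 of 4 replicates). lin-35, the Rb homolog, had 0.27 ± 0.16 (FDR 0.238), and hpl-2, a heterochromatin protein, 0.12 ± 0.12 (FDR 0.528). The chromodomain gene cec-4 had -0.45 ± 0.18, with an FDR of 0.0622 that passed at 0.0465 with the replicate block. These values describe transcripts and say nothing of the activity of the proteins.

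Genes of fatty acid breakdown were mostly lower at 12 h. Of 33 genes of fatty acid oxidation tested, 21 were lower and 2 higher at 12 h, with a median log2 fold change of -0.81. Expression of cpt-1 (Y46G5A.17), the carnitine palmitoyl transferase that admits fatty acids to mitochondria, was 195, 174, 191 and 164 CPM at 12 h, against 366, 489, 500.2 and 404 CPM at 4 h. The groups were apart, and the log2 fold change was -1.28 ± 0.10. A second transferase gene, cpt-5, fell by 2.28, and the enoyl-CoA hydratase family genes ech-9 and ech-4 by 3.19 and 1.47. An exception was ech-7, at 42.4, 33.7, 28.02 and 44.0 CPM at 12 h, against 11.2, 13.5, 8.79 and 14.6 CPM at 4 h, a log2 fold change of 1.62 ± 0.31. The summed CPM of the list was 1241 to 1371 at 12 h, below the 1874 to 2300.5 at 4 h.

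The citric acid cycle showed the same direction, with 15 of 23 genes lower and 1 higher (median log2 fold change -0.62). Expression of mdh-2 (F20H11.3), mitochondrial malate dehydrogenase, was 83.8, 109, 121 and 79.6 CPM at 12 h, against 354, 519, 534 and 448 CPM at 4 h, a log2 fold change of -2.24 ± 0.15. Citrate synthase, cts-1 (T20G5.2), was at 410.5, 438, 473 and 371 CPM at 12 h, against 825, 1164, 1089.9 and 1078 CPM at 4 h, and aconitase, aco-2 (F54H12.1), at 306, 347, 328 and 295 CPM at 12 h, against 645, 862, 662 and 715 CPM at 4 h. None of these overlapped between the times, and the log2 fold changes were -1.296 ± 0.11 and -1.18 ± 0.10. The succinate dehydrogenase subunit gene sdhd-1 fell by 1.096. The respiratory chain and ATP synthase moved less, with 10 of 39 genes lower and 2 higher and a median of -0.16. Without replicate 8 the median was -0.07 with 7 lower and 1 higher, and without scaling factors 8 were lower and 0 higher.

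Carbohydrate genes split. The glyoxylate cycle gene icl-1 (C05E4.9), which lets the larva make sugar from fat, was at 67.8, 37.4, 60.3 and 33.8 CPM at 12 h, against 118.9, 257, 294 and 129 CPM at 4 h, a log2 fold change of -2.002 ± 0.23. Replicates 1 and 8 were low at 4 h, yet every 12 h library was below them. Expression of fbp-1 (K07A3.1), the gluconeogenic fructose bisphosphatase, was 30.7, 33.8, 30.96 and 30.7 CPM at 12 h, against 83.7, 115, 118 and 109.98 CPM at 4 h, a log2 fold change of -1.76 ± 0.12. Glycogen phosphorylase, pygl-1, and glycogen synthase, gsy-1, both fell, by 0.80 and 0.66, whereas the trehalase gene tre-5 rose by 1.04. In all, 7 of 18 genes of this group were lower and 2 higher. Of 18 glycolysis genes 8 were lower, led by the lactate dehydrogenase gene ldh-1 (-1.25 ± 0.16) and including the phosphofructokinase gene pfk-1.1 (-0.87 ± 0.11). There, 4 were higher, and 2 without scaling factors.

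The vacuolar ATPase, the proton pump of lysosomes and of the excretory canal, was lower in most of its subunit genes. Of 21 subunit genes tested, 17 were lower and 0 higher at 12 h, with a median log2 fold change of -0.54, by the edgeR test and with 18 lower under the replicate block. Expression of vha-13 (Y49A3A.2), the catalytic A subunit, was 519.9, 570.1, 567 and 466 CPM at 12 h, against 1004, 1409, 1172 and 1241 CPM at 4 h, and of vha-12 (F20B6.2), a B subunit, 268, 312, 298 and 230.2 CPM at 12 h, against 478, 768, 653 and 631 CPM at 4 h. Neither overlapped, and the log2 fold changes were -1.19 ± 0.10 and -1.19 ± 0.12. vha-8, vha-10 and vha-4 fell by 1.11, 1.03 and 1.01. The 4 genes that did not pass by edgeR had log2 fold changes of -0.24 to 0.08, and 1 of them passed at an unadjusted p under 0.05.

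**Figure D4:**
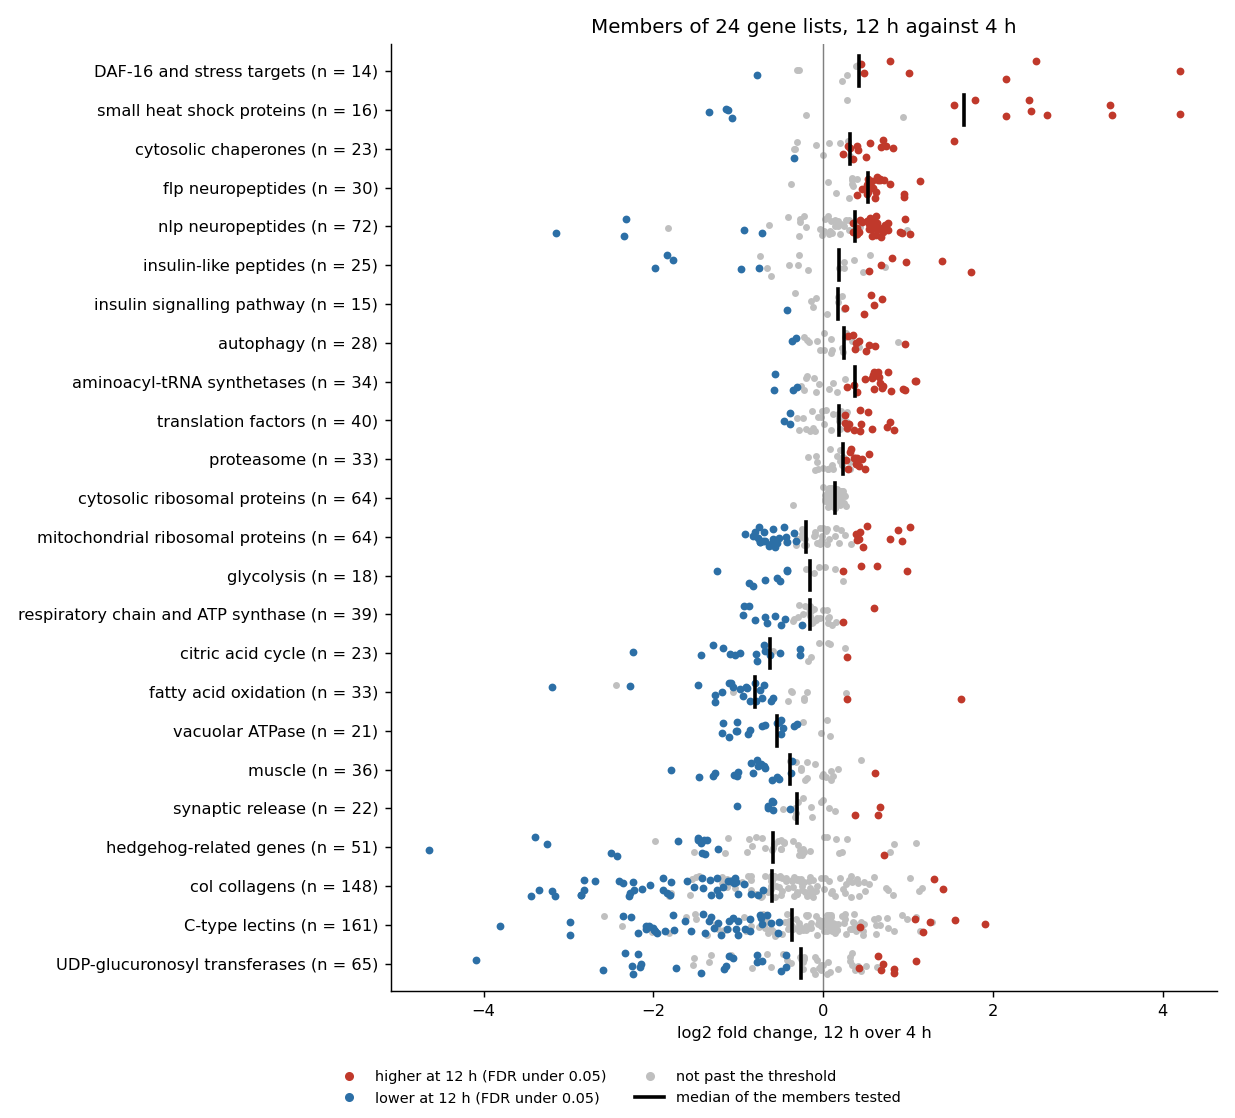
Log2 fold change (12 h over 4 h, horizontal axis) of every tested member of 24 gene lists. Red members were higher and blue members lower at 12 h at an FDR under 0.05, gray members did not pass, and the black bar is the median of the members tested. The medians run from -0.81 in fatty acid oxidation to 1.66 in small heat shock proteins.

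Intestinal digestion genes exchanged members. Of 25 lysosomal and gut proteases tested, 7 were higher and 6 lower. Their summed CPM was 20178 to 24730 at 12 h and 17524 to 20845 at 4 h, with overlap. The cathepsin B-like gene cpr-4 (F44C4.3) was at 32.4, 38.1, 34.3 and 39.6 CPM at 12 h, against 239, 244, 231 and 265 CPM at 4 h, a log2 fold change of -2.76 ± 0.21. Expression of cpr-1 (C52E4.1) was 32.1, 44.8, 54.5 and 38.1 CPM at 12 h, against 215, 283, 228 and 317 CPM at 4 h, a log2 fold change of -2.62 ± 0.29. The 2 groups of libraries were far apart in both. cpr-9 and cpr-5 fell by 1.69 and 1.66, while cpr-2, of the same family, was among the largest rises. Of 34 lysozyme and saposin genes, 11 were lower and 6 higher, and lys-4 and ilys-5 fell by 2.37 and 2.18. The summed CPM of the 34 genes was 3197.5 to 4160 at 12 h and 2664 to 3953 at 4 h, also with overlap. Of 161 C-type lectin genes, a family of secreted carbohydrate-binding proteins, 41 were lower and 6 higher (23 lower among genes of at least 10 CPM), led among those above 5 CPM by clec-4 (-2.98 ± 0.46), clec-67 (-2.27 ± 0.25) and clec-173 (-2.18 ± 0.26).

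Of 7 intestine markers, 1 was higher, 2 were lower and 4 did not pass, with a median log2 fold change of 0.29. The lower genes were act-5 and elt-2. Expression of act-5 (T25C8.2), the actin of intestinal microvilli, was 146, 148, 176 and 119.6 CPM at 12 h, against 665, 1033, 941 and 825 CPM at 4 h, a log2 fold change of -2.55 ± 0.17. The transcription factor gene elt-2 (C33D3.1), the main GATA factor of the intestine, was at 11.48, 13.2, 12.31 and 12.24 CPM at 12 h, against 21.5, 29.6, 26.5 and 26.2 CPM at 4 h, with a log2 fold change of -1.08 ± 0.15. Both were lower in every 12 h library. The intermediate filament gene ifb-2 of the same cells had 0.40 ± 0.13, a call that was lost without replicate 1 or 8, without scaling factors and without the filter on low counts, and summed intestinal markers overlapped between the times as given above.

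Neuropeptide genes were often higher at 12 h. Of 30 genes of the flp family, which encode FMRFamide-like peptides, 21 were higher and 0 lower at 12 h, with a median log2 fold change of 0.52. The count by edgeR was 27 higher and 0 lower with the replicate block, and 17 to 22 higher with a replicate left out. Expression of flp-3 (W07E11.2) was 139, 139, 161 and 179.6 CPM at 12 h, against 61.2, 69.97, 66.2 and 83.8 CPM at 4 h, and of flp-20 (E01H11.3) 27.9, 28.1, 32.1 and 40.5 CPM at 12 h, against 14.2, 14.2, 16.01 and 21.995 CPM at 4 h. Each was without overlap, and the log2 fold changes were 1.14 ± 0.16 and 0.95 ± 0.18. Further rises were flp-4 (0.95 ± 0.19), flp-16 (0.79 ± 0.19) and flp-27 (0.71 ± 0.15).

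Of 72 nlp genes, which encode the other neuropeptide-like proteins, 31 were higher and 5 lower, and without replicate 8 the number of higher genes was 16. The largest rises above 5 CPM were nlp-59 (1.03 ± 0.19) and nlp-2 (0.97 ± 0.17). The falling members stood apart: nlp-24 (F35B12.7) was at 15.3, 10.99, 14.8 and 16.9 CPM at 12 h, against 64.3, 148, 187 and 118 CPM at 4 h, a log2 fold change of -3.15 ± 0.30. nlp-33, which is known as an antimicrobial peptide gene of the epidermis, fell by 2.32, and nlp-26 by 2.34. The enzymes that process neuropeptide precursors moved up. Expression of egl-3 (C51E3.7), a proprotein convertase, was 1343, 1668, 1365 and 1356 CPM at 12 h, against 849.8, 1106, 854 and 792 CPM at 4 h, and of egl-21 (F01D4.4), a carboxypeptidase E, 1082, 1255, 1104 and 1218 CPM at 12 h, against 659, 847, 673 and 801 CPM at 4 h. Both were higher in every 12 h library, with log2 fold changes of 0.67 ± 0.14 and 0.64 ± 0.12.

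Genes of synaptic release and transmitter synthesis were more often lower than higher in the same libraries. Of 22 such genes, 7 were lower and 3 higher, and 11 were lower with the replicate block. The highest log2 fold change of this list was 0.67, the value of egl-3 above, so its 3 higher genes may include enzymes of peptide processing. The summed CPM of the list was 4834 to 5601 at 12 h and 3985 to 4985 at 4 h, with overlap. Expression of bas-1 (C05D2.4), the decarboxylase of serotonin and dopamine synthesis, was 16.99, 23.9, 22.1 and 23.7 CPM at 12 h, against 41.6, 45.9, 45.7 and 42.2 CPM at 4 h, a log2 fold change of -1.02 ± 0.11. The glutamic acid decarboxylase gene unc-25, which makes GABA, the vesicular monoamine transporter gene cat-1 and the synaptic vesicle GTPase gene rab-3 fell by 0.65, 0.65 and 0.59. Neuron markers as a list had 1 of 7 lower and 0 higher by edgeR, and 4 lower with the block. Of 34 cilia genes 8 were higher, led by the dynein heavy chain gene che-3 (0.71 ± 0.14), but 1 without replicate 1, 4 without replicate 6, 3 without replicate 8, 1 without scaling factors and 1 without the filter on low counts.

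Protein synthesis genes differed between lists. Of 34 aminoacyl-tRNA synthetase genes, whose products charge tRNAs with amino acids, 19 were higher and 4 lower. Expression of rars-1 (F26F4.10), arginyl-tRNA synthetase, was 271, 263, 238 and 284 CPM at 12 h, against 118, 118.8, 114 and 142 CPM at 4 h, and of lars-1 (R74.1), leucyl-tRNA synthetase, 680.4, 689, 654 and 676 CPM at 12 h, against 371, 365, 337 and 336 CPM at 4 h. The groups did not overlap, and the log2 fold changes were 1.0997 ± 0.09 and 0.94 ± 0.08. Seryl-, cysteinyl- and histidyl-tRNA synthetases (sars-1, cars-1 and hars-1) rose by 1.083, 0.96 and 0.80. Of 40 translation factor genes, 13 were higher and 3 lower, but 6 were higher without scaling factors, and the largest rises were eif-3.B (0.83 ± 0.10), a subunit of initiation factor 3, and the poly(A)-binding protein gene pab-2 (0.79 ± 0.11).

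None of 64 cytosolic ribosomal protein genes passed the edgeR test, with 0 at an FDR under 0.05, 5 at an unadjusted p under 0.05, 2 with the replicate block and 0 with DESeq2. With the replicate block in a fit of the 8 libraries alone, 17 were higher and 1 lower. Their median log2 fold change was 0.14, and 62 of the 64 were above 0. In contrast, 23 of 64 mitochondrial ribosomal protein genes were lower and 10 higher, with 6 higher without scaling factors and with mrps-28 at -0.92 ± 0.18, mrps-17 at 0.93 ± 0.13 and mrps-11 at 0.88 ± 0.13. The nucleolar genes also split. Expression of fib-1 (T01C3.7), fibrillarin, which methylates ribosomal RNA, was 118.7, 105, 93.6 and 101 CPM at 12 h, against 261, 353, 311 and 315 CPM at 4 h, a log2 fold change of -1.57 ± 0.13, and its complex partners nol-56 and nol-58 fell by 1.21 and 0.98. The pescadillo homolog lpd-7 and the nucleostemin gene nst-1, which act in assembly of the large ribosomal subunit, rose by 0.96 ± 0.09 and 0.91 ± 0.10. Of 29 genes of this group, 10 were higher (6 without scaling factors) and 6 lower.

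Of 33 proteasome subunit genes, 13 were higher and 0 lower by edgeR, with a median log2 fold change of 0.23, led by rpn-11 (0.54 ± 0.10) and pas-6 (0.50 ± 0.10). The number of higher genes was 8 without replicate 1, 8 without replicate 6, 7 in a fit of the 8 libraries alone, 3 without scaling factors and 16 with the replicate block.

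Collagen and hedgehog-related genes were more often lower than higher. Of 148 col collagen genes, 42 were lower and 2 higher at 12 h, with a median log2 fold change of -0.60 (26 lower among genes of at least 10 CPM), and their summed CPM was 3702 to 4351 at 12 h and 8426 to 12123 at 4 h. Expression of col-144 (B0222.6) was 91.1, 123, 116 and 90.3 CPM at 12 h, against 558, 794, 721 and 901 CPM at 4 h, and of col-166 (T07H6.3) 25.02, 36.2, 32.8 and 29.7 CPM at 12 h, against 196, 229, 200.4 and 269 CPM at 4 h. Their log2 fold changes were -2.82 ± 0.22 and -2.85 ± 0.22, without overlap, though close collagen paralogs may share reads. Of 51 hedgehog-related genes, 14 were lower and 1 higher, and 7 were lower without replicate 1. Besides grd-13 and grd-10, grd-3 and grd-5 fell by 2.50 and 2.43. The peroxidase gene mlt-7, which acts in cuticle cross-linking at the molt, fell by 1.18. Against this direction, the cuticle collagen gene dpy-5 (F27C1.8) was at 20.6, 17.3, 5.55 and 9.33 CPM at 12 h, against 3.02, 1.99, 0.581 and 0.658 CPM at 4 h, a log2 fold change of 3.05 ± 0.74. Of 17 Dpy, Rol, Sqt and Bli collagen genes tested, 1 was higher (dpy-5) and 1 lower (sqt-3, -1.12). In this list 15 genes had a log2 fold change below 0, and the median was -0.52. The call of sqt-3 was lost without replicate 1, 5 or 6 and in a fit of the 8 libraries alone.

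Contractile genes were more often lower than higher. Of 36 muscle genes, 19 were lower and 1 higher, with a median log2 fold change of -0.39. Expression of the troponin I gene unc-27 (ZK721.2) was 202, 231, 226 and 239 CPM at 12 h, against 425, 599, 519 and 674 CPM at 4 h, a log2 fold change of -1.304 ± 0.20, and dim-1 and tni-1 fell by 1.27 and 1.05. The muscle actin genes act-1 and act-3, which are close paralogs, fell by 1.46 and 1.79. The rising gene was myo-3 (K12F2.1), a body wall myosin heavy chain, at 1209, 912, 1209 and 829.8 CPM at 12 h, against 637, 786, 735 and 573 CPM at 4 h. It did not overlap, and its log2 fold change was 0.61 ± 0.16. The body wall muscle markers, which include myo-3, did not share the fall. Of 3 tested, 1 was higher and 0 lower, with a median log2 fold change of 0.45. Their summed CPM was 10280 to 12216 at 12 h and 8213 to 10713 at 4 h, with overlap. Of 6 pharynx markers, 0 were higher and 2 lower, with a median of -0.30.

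Of 35 DNA replication genes, 5 were lower (14.3%, near the 13.3% of all genes) and 2 higher (5.71%, against 13.6%). With the replicate block 9 were lower and 4 higher. Without replicate 5, 3 were lower. The ribonucleotide reductase gene rnr-1 was at 38.5, 32.2, 32.03 and 25.6 CPM at 12 h, against 58.5, 49.2, 56.7 and 55.4 CPM at 4 h, a log2 fold change of -0.77 ± 0.13. Of 31 P granule and germ cell genes, which mark the germ cell precursors, 5 were higher and 1 lower, though 3 were higher without replicate 1 and 1 without scaling factors. Of 19 maternal RNA-binding protein genes 0 passed by edgeR in either direction, with 1 at an unadjusted p under 0.05, 1 with the block and 0 with DESeq2.

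To see how this window related to hatching, the calls were set beside 2 h against -2 h, which shares cultures but no library with them. By the study's hatching counts some animals were still in the egg at 2 h, so this comparison covers hatching only in part. That comparison gave 6648 genes (39.1%), and among all genes tested 20.5% were higher and 18.6% lower at 2 h. Both comparisons called 2384 genes, which is 52.2% of those called in 12 h against 4 h and 35.9% of those called across hatching. Of the genes lower at 12 h than at 4 h, 776 were higher at 2 h than at -2 h and 434 were lower. Of those higher at 12 h, 866 were also higher at 2 h and 308 were lower. The share with the same direction in both was 54.5%, where 49.7% would follow if directions were unrelated. In the fit without replicate 1 it was 50.5%. lys-1 had 1.07 across hatching and -3.40 afterward, and the difference of -4.46 passed at an edgeR FDR of 3.13e-11. cpr-4 had 1.28 across hatching and -2.76 afterward (difference -4.04, FDR 7.24e-15), and act-5 0.48 and -2.55 (difference -3.03, FDR 1.45e-13). For hsp-12.6 the same values were 0.64 and 4.205 (difference 3.56, FDR 7.67e-07). In the -2 h library of replicate 6, ribosomal RNA took 46.3% of the gene counts, and without this replicate the share of the same direction was 56.01%.

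Long arrest was taken as 192 h against 24 h, which likewise shares no library with 12 h against 4 h and gave 6737 genes (39.7%). Both called 2739 genes, 60.01% of the early calls and 40.7% of the late ones, and 80.3% of these moved in the same direction (49.8% if directions were unrelated). Of the early rises, 1153 were higher and 366 lower at 192 h than at 24 h, and of the early falls 1046 were lower and 174 higher. Among all genes tested, 19.4% were higher and 20.3% lower at 192 h. These changes are relative, and in a separate experiment the study found less total RNA per animal late in arrest. Amounts of transcript per animal were not tested here. fat-6 rose in both, by 2.01 and 2.06, and lys-1 fell in both, by 3.40 and 2.56. hsp-12.3 and sod-3 went against this, with 2.16 and 1.02 between 4 and 12 h, and -2.60 and -3.16 between 24 and 192 h.

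**Figure D5:**
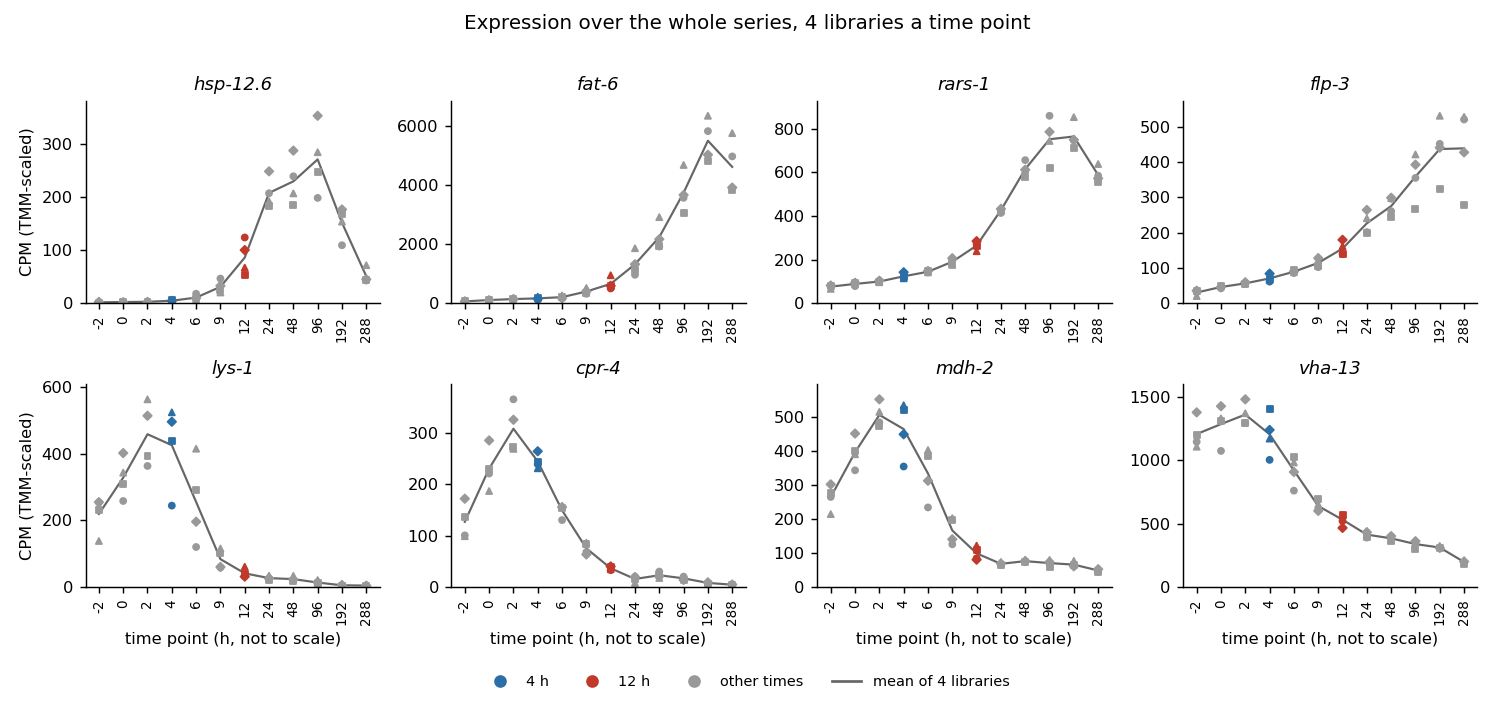
Expression (CPM after TMM scaling, linear axis from 0) of 4 genes higher and 4 genes lower at 12 h than at 4 h, over the 12 time points of the series in hours from the nominal hatch (horizontal axis, not to scale). Points are the 4 libraries of each time point, blue at 4 h, red at 12 h and gray at other times, and the line joins the means. The mean of fat-6 is 163 CPM at 4 h, 657 CPM at 12 h and 5514 CPM at 192 h, and that of lys-1 is 458 CPM at 2 h and 25.9 CPM at 24 h.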

How the data were processed

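Poly(A) RNA of starved L1 larvae was sequenced as single-end reads, and the authors aligned these with bowtie to the WS210 genome and counted reads per gene with HTSeq. Tool versions and the strand setting are not given in the sources used here. The deposited values are raw counts per gene, and reads with up to 2 genomic locations were kept, so close paralogs may share reads. Each library was summed over genes without the 5 summary entries.

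Differential expression was computed with edgeR 4.0.16 in R 4.3.3 (TMM factors, quasi-likelihood F test, two-sided, Benjamini-Hochberg adjustment over all genes tested) on all 48 libraries with group means and no block, after the filter of the study (CPM above 1 in at least 4 libraries). The SE of a log2 fold change is its size over the root of F. CPM are TMM-scaled. On simulated counts, 43.3% of genes changed by 0.5 on the log2 scale were recovered in 12 h against 4 h, 83.6% at 1 and 98.5% at 2. There, 12 h had the 4 h means except in a small set of changed genes, and no replicate effect was drawn. Far more genes differ in the real data, so these shares need not hold there.

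The replicate numbers paired the samples: deviations from the group means correlated at 0.371 to 0.423 for the 4 same-numbered pairs across genes and at -0.287 to 0.058 for the other 12 pairs. A fit with the replicate number as a block was therefore an alternative. Others were DESeq2 1.42.0, other scaling factors, filters and tests, the libraries of the compared groups alone, ribosomal RNA left out, and each replicate left out. The labels name no separate cultures per library beyond the replicate number, so p-values measure the spread between these samples.

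Named genes were the 15 largest rises and 15 largest falls among called genes with a symbol, a mean of at least 10 CPM and the same direction in 4 of 4 replicates, then up to 5 called members per list by size of change with a mean of at least 5 CPM, and 9 regulators. The text describes a part of the 269 genes that this rule names, and 1 item is not reported here. The comparison and the 62 gene lists, taken from general knowledge, were chosen with earlier results of these data known, so lists are described by counts and medians without a test. Promoter motifs were not analysed here.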

Additional observations from a re-analysis of the deposited data

Results flagged for a closer look

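Among 118 groups of 4 libraries examined (expression of the genes given per library, and library measures), 7 held a library that stood apart by Dixon's criterion, or 5.93%, and chance flags about 1 in 20 groups. At 12 h, replicate 5 stood above the other replicates for daf-2 (542 CPM), egl-3 (1668 CPM) and fbp-1 (33.8 CPM). At 4 h, replicate 1 stood above the others for hsp-90 (962 CPM) and tbb-6 (5.83 CPM) and below them for ftt-2 (788 CPM). Also at 4 h, the share of reads without a gene was highest in replicate 6, at 28.5%. The differences of these genes between 12 h and 4 h stayed past the threshold with each replicate left out.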

How the results depend on the processing

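The number of genes called in 12 h against 4 h was 3368 to 3836 with a replicate left out, against 4564 with all replicates, and 3547 to 6600 over the other alternatives. Without scaling factors 1489 genes were higher, against 2306, and the median gene had a log2 fold change of -0.06, against -0.01. The 269 named genes gave 0 reversals, 157 calls lost over 47 genes and 5 calls gained over 2 genes. With the replicate block, the counts given beside the lists moved, cec-4 passed, and no other named gene changed its call. Of 61 list medians, that of the embryo and hatching markers reversed: it was -0.12 with all replicates, and -0.195 to 0.0413 with a replicate left out, the highest without replicate 8. In all, 19 medians moved by more than their spread under at least 1 alternative, and medians close to 0 changed sign, such as those of the gut proteases (0.01, and -0.24 without replicate 6) and of HLH-30, MXL-3 and lipases (0.04, and -0.10 without replicate 1).

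The share of genes moving the same way in 2 h against -2 h (54.5%) was 54.9% with upper-quartile factors, 52.4% without scaling factors, 56.1% for genes of at least 10 CPM, 53.1% with the libraries of the compared groups alone, 55.4% with the replicate block and 54.9% with DESeq2. It was 50.5 to 56.5% with a replicate left out. For 192 h against 24 h (80.3%) it was 80.1% with DESeq2 size factors, 80.05% with upper-quartile factors, 82.2% without scaling factors, 81.2% without the filter, 81.3% for genes of at least 10 CPM, 79.7% with the compared libraries alone, 79.1% with the replicate block, 80.6% with ribosomal RNA left out, and 80.4 to 82.5% with a replicate left out. The cause of these shifts was not tested.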

Other observations

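Detoxification families, not described above, held genes that were higher and genes that were lower. Over all genes tested these shares were 13.6 and 13.3%. Of 44 glutathione S-transferase genes, 7 were higher and 12 lower at 12 h, with gst-15 at 1.56 ± 0.24 and gst-26 at -1.97 ± 0.21 (log2 fold change ± SE). Of 78 cytochrome P450 genes, 13 were higher (16.7%, near that of all genes) and 6 lower (7.69%), where 2 were lower without replicate 5 and 1 without replicate 8. cyp-35B1 rose by 2.44 ± 0.45 and cyp-37B1 by 1.22 ± 0.16. Of 65 UDP-glucuronosyl transferase genes 7 were higher and 20 lower, and without replicate 8 these numbers were 4 and 12. ugt-13 and ugt-12 fell by 2.60 and 2.18. Among superoxide and peroxide enzymes, 8 of 18 were higher (5 without replicate 1, 4 without scaling factors) and 6 lower. The thioredoxin gene trx-2 had 0.77 ± 0.12 and the copper-zinc superoxide dismutase gene sod-1 -0.71 ± 0.14.

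Lipid genes other than those of breakdown also split. The elongase gene elo-6 fell by 1.496 while the desaturase gene fat-4 rose by 0.55. The lipase genes lipl-5, lipl-2 and lipl-7 rose by 1.12, 1.077 and 0.88, opposite to lipl-1. Of 244 nuclear hormone receptor genes, 42 were higher (27 without replicate 1, 25 without scaling factors) and 28 lower, which is 17.2 and 11.48% and near the shares of all genes, with nhr-18 at 1.49 ± 0.10 and nhr-68 at -1.19 ± 0.14. Of 5 excretory cell markers 1 was higher and 2 lower, with a median of -0.03, and the aquaporin gene aqp-8 had a log2 fold change of -1.48 ± 0.16. The call of the higher one, exc-4 (0.43), was lost without replicate 1, 5 or 8 and in 4 other alternatives. Chosen after their values were seen, the HSP70-related genes F44E5.4 and F44E5.5 had log2 fold changes of 2.76 ± 0.53 and 2.78 ± 0.53, and reads of these close copies may be shared.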
